A study of Mus musculus with 83 samples.

Results

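The 10 genes described here belong to the machinery that remodels tissue around an ovulating follicle. They were followed in single mouse ovarian follicles and code for the secreted metalloproteinases Adamts1, Adamts4, Adamts5 and Adamts9, the plasminogen activators Plau and Plat, the urokinase receptor Plaur, the cathepsin Ctsl, the matrix metalloproteinase Mmp19 and the inhibitor Timp1. They are the listed protease, receptor and inhibitor genes among the 21572 genes of the count table, and all 10 were found. The list was drawn up by name, with earlier results of these data known. All 10 also passed the filter on low counts that left 11889 genes to test.

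The study asked whether follicles stored by vitrification, a cooling into a glass without ice crystals, respond to an ovulatory stimulus like fresh ones. All follicles came from CD-1 mice, an outbred strain, labelled WT, and each library held the RNA of 1 follicle. Fresh or vitrified follicles were grown for 8 days in 0.5% alginate beads with FSH, freed from the beads at a diameter of 300 to 350 µm and moved to medium with 1.5 IU/ml hCG, 10 ng/ml EGF and 10 mIU/ml FSH. They were collected at 0, 1, 4 or 8 h. Fresh follicles numbered 18, 6, 7 and 4 at these times and vitrified follicles 15, 14, 7 and 12. No group was moved to the new medium without hCG, so that changes after 0 h cannot be told apart from those that release from the bead, fresh medium or EGF would bring. The animals' age is not stated in the labels.

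In an ovulating follicle, the surge of luteinizing hormone (here replaced by hCG, which acts on the same receptor) makes granulosa cells secrete enzymes that loosen the matrix of the cumulus and of the follicle wall. ADAMTS enzymes cut proteoglycans such as versican, plasminogen activators turn plasminogen into the broad protease plasmin, matrix metalloproteinases cut collagens and basement membrane proteins, and TIMPs hold the metalloproteinases in check. Mice without Adamts1 ovulate poorly, and Adamts1 and Ctsl are known targets of the progesterone receptor in granulosa cells.

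Reference sequences in front of 3 of the genes are given: Adamts1, which was highest at 1 h, Plaur, the receptor, and Timp1, which was highest at 8 h. Which start site the follicles used was not measured. RefSeq promoter windows on GRCm38.p6, from 250 bases before to 50 after the start, matched 5 of the 10 genes (Adamts1, Adamts9, Plaur, Ctsl and Timp1), and the 250 bases before the start are printed, 5′ to 3′ on the gene's own strand. Capitals mark matches to the motifs searched. Adamts1 lies on the minus strand (chr16:85803114-85803363), Plaur on the plus strand (chr7:24462233-24462482) and Timp1 on the plus strand (chrX:20869916-20870165).
Adamts1: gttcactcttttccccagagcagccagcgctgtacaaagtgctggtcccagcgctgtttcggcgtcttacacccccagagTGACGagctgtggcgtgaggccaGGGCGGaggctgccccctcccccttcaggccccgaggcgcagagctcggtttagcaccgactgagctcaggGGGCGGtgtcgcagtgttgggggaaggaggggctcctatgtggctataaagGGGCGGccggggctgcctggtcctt
Plaur: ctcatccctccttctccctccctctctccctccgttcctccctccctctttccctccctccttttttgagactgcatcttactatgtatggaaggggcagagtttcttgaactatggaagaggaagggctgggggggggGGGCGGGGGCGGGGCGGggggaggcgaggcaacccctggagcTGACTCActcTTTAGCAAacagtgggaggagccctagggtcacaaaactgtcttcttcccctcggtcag
Timp1: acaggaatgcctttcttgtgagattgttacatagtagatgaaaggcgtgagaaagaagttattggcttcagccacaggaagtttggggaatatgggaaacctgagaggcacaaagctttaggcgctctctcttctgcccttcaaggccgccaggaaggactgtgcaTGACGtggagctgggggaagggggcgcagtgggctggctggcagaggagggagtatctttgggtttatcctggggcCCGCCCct

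On both strands of the whole windows, 9 motifs were searched: the cAMP response element TGACGTCA and its first 5 letters TGACG, the AP-1 motif TGANTCA, the GC box GGGCGG, the E-box CACGTG, the RUNX motif TGTGGT, the C/EBP motif TTGCNNAA, the NR4A motif AAAGGTCA and the SF-1 or LRH-1 motif CAAGGTCA. Among all 32851 windows, 20.8% held TGACG and 35.7% a GC box. Adamts1 held TGACG 170 bases before the start and GC boxes at 147, 76 and 25 bases. Timp1 held TGACG at 84 bases and a GC box on the other strand at 8 bases. Plaur held an AP-1 match at 69 bases, a motif of 7.81% of all windows, with 3 GC boxes from 111 to 100 bases, the last pair sharing a base, and a C/EBP match on the other strand at 59 bases (10.8% of all windows). In the windows not printed, Ctsl held an E-box at 236 bases (7.15% of windows) and a C/EBP match at 114 bases. Adamts9 held TGACG at 218 bases and a GC box at 7 bases. The Ctsl window (chr13:64370471-64370770) lies inside the span that GENCODE gives the gene (chr13:64359337-64370890, minus strand). Its matches are therefore not in front of the GENCODE start. None of the 5 windows held TGACGTCA, TGTGGT, AAAGGTCA or CAAGGTCA, which occur in 1.79%, 16.8%, 1.51% and 1.56% of all windows. A match is a run of letters and says nothing of binding.

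Library totals ranged from 682200 to 6504588 estimated counts, with 11830 to 17233 genes detected. All 0 h libraries carry a plate name of their own in their titles, and a change between 0 h and 1 h therefore cannot be told apart from a difference between plates. The other titles share 1 of 2 prefixes, which are called plates here although the labels do not use the word for them. Of the later libraries, 32 shared a prefix (6 fresh and 5 vitrified of 1 h, 7 and 7 of 4 h, 4 and 3 of 8 h), and 9 vitrified libraries of 1 h and 9 of 8 h had the other, which no fresh library has (the vitrified-only plate). Comparisons were made within a plate, except the step from 0 h and where plates were compared. Within the shared plate, sample numbers in the titles repeat between fresh and vitrified 1 h and between fresh 4 h and 8 h, so these groups may come from separate runs, and such a difference cannot be told apart from that between the groups. Over all groups, the vitrified-only plate included, the 10 granulosa markers summed to medians of 55000 to 88020 counts per 1000000 (CPM) up to 4 h and 11690 to 13910 at 8 h. The 10 oocyte markers summed to medians of 13.7 to 48.1 CPM, theca and stroma to 220 to 1751, immune to 0.518 to 33.6 and endothelial to 5.80 to 51.5, and none of the 4 erythroid markers was in the table used here. Levels are CPM of rounded estimated counts scaled by TMM unless TPM is named. Unless limma is named, adjusted p-values were obtained by the quasi-likelihood test of edgeR, with the Benjamini-Hochberg method over all 11889 genes, and read at 0.05. By that test, single granulosa markers changed before 8 h. From 1 h to 4 h, of 9 tested, 7 fell and 0 rose in fresh follicles, where 24.5% of all genes fell. In vitrified follicles of the shared plate 8 fell and 0 rose, where 25.9% of all genes fell. Since the labels name no animals or cultures, the p-values reflect only how much these follicles vary, and some of that may be technical. In such bulk RNA, fewer cells of a type and less RNA per cell cannot be told apart.

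**Figure D1:**
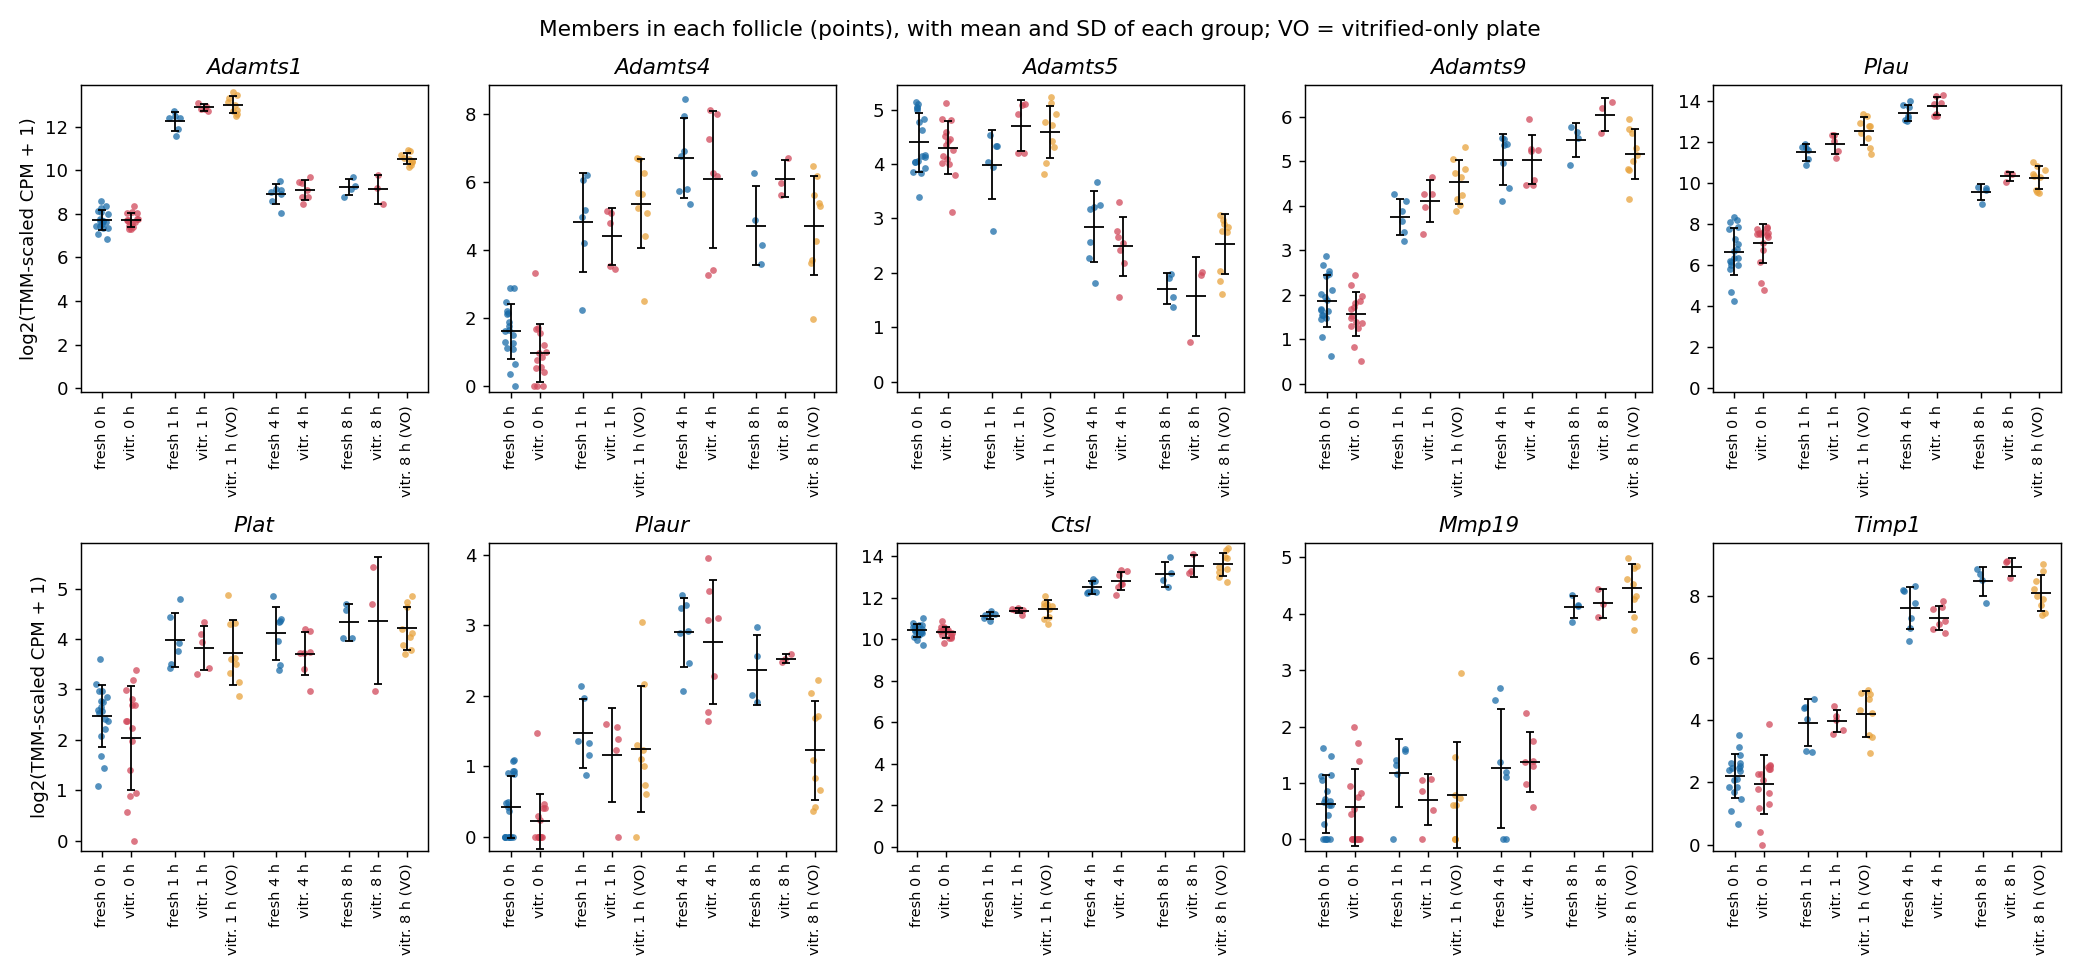
Level of each gene in every follicle, as log2(CPM + 1) on the y axis of each panel, with the mean and SD of each group (black); blue is fresh, red vitrified on a plate with fresh follicles, orange vitrified on the vitrified-only plate. Adamts1 is highest at 1 h, Plau at 4 h, and Mmp19 stays at or under 6.75 CPM in every follicle before 8 h.

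Between 0 h and 1 h, 8 of the 10 genes rose in fresh follicles and none fell, in a comparison where 19% of all genes tested were called higher and 23.1% lower. The median log2 change of the 10 genes was 1.88, beside -0.11 over all genes tested. In vitrified follicles of the plates compared, the same 8 rose (Adamts1, Adamts4, Adamts9, Plau, Plaur, Plat, Ctsl and Timp1) and none fell, where 21.5% of all genes were higher and 22% lower, and their median change was 2.32, beside -0.05 over all genes. From 1 h to 4 h, 6 rose and 2 fell in fresh follicles (21.9% and 24.5% of all genes), and the same 6 and 2 in vitrified ones (20.6% and 25.9%), with a median of 1.38 in both, beside -0.03 and -0.11 over all genes. From 4 h to 8 h, 2 rose and 3 fell in fresh follicles (20.8% and 15.7% of all genes), and 4 rose and 2 fell in vitrified ones (22% and 15%). The median change of the 10 genes in this last step was 0.25 in fresh and 0.40 in vitrified follicles, beside 0.12 and 0.17 over all genes.

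The scaling bears on the first and last steps. With total counts alone in place of TMM, the median change of all genes moved by -0.49 in fresh and -0.60 in vitrified follicles from 0 h to 1 h, and by 0.63 and 0.57 from 4 h to 8 h. The calls over all genes then split into 1159 higher and 5266 lower for the fresh first step, against 2257 and 2749 with TMM, and into 5093 and 715 for the fresh last step, against 2474 and 1866. In vitrified follicles they were 1259 and 5375 against 2552 and 2621, and 4717 and 835 against 2618 and 1789. Changes are reported relative to the TMM scaling. Each of the followed protease, receptor and inhibitor genes whose call turned on it is named. For the lists of further genes, at most the counts of calls under another scaling are given, without the genes.

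**Figure D2:**
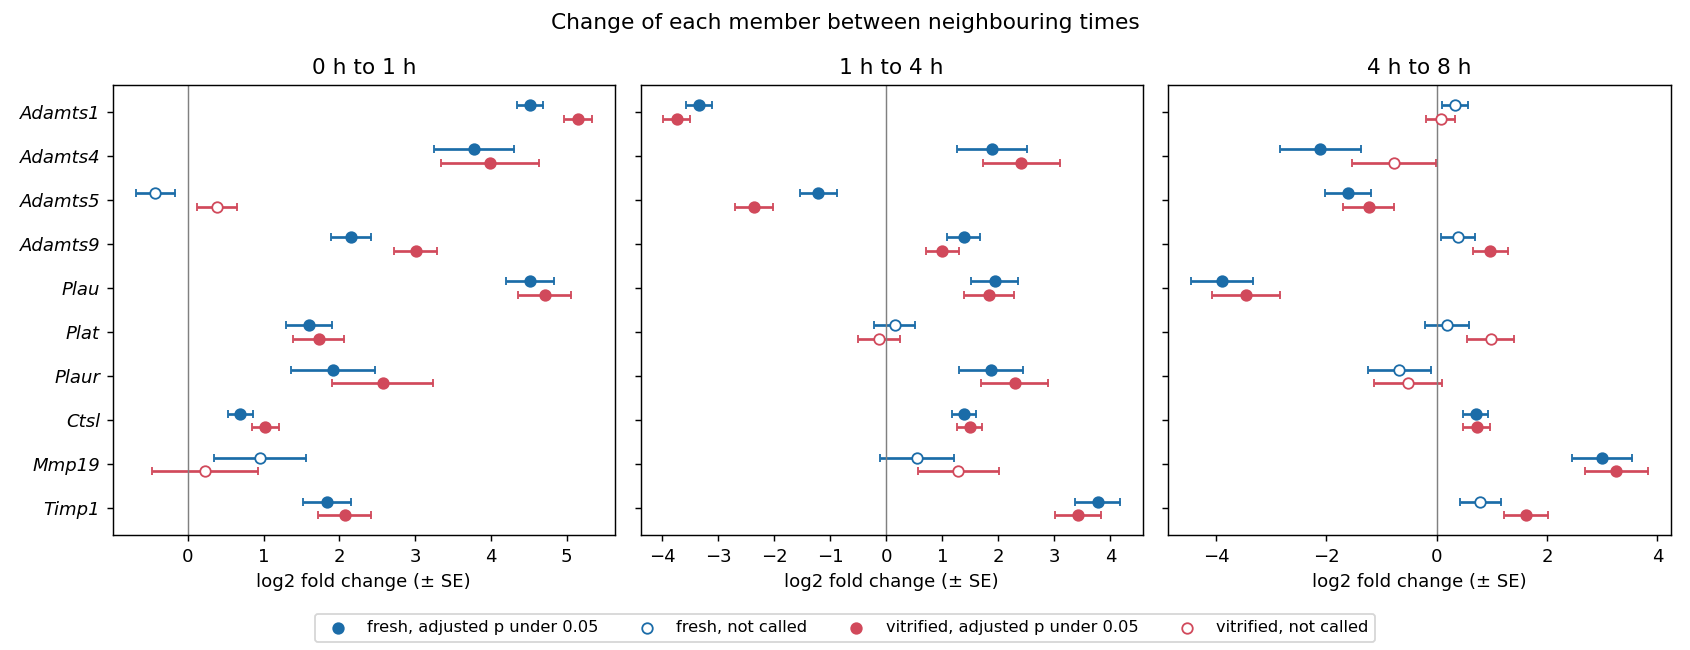
Log2 fold change (x axis, with SE) of each gene over the 3 steps between neighbouring times in fresh (blue) and vitrified (red) follicles, filled where the adjusted p was under 0.05. Adamts1 goes from +4.52 to -3.34 in fresh follicles between the first and the second step, and Plau from +1.93 to -3.89 between the second and the third.

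Adamts1 (chr16:85793827-85803113, minus strand, GRCm38) codes for a secreted protease that cuts versican in the expanding cumulus matrix. Its level was highest at 1 h. At 0 h its lowest, median and highest levels were 115, 203 and 389 CPM in the 18 fresh follicles and 155, 208 and 328 CPM in the 15 vitrified ones. At 1 h they were 3035, 5391 and 6780 CPM in fresh follicles, and the 5 vitrified follicles of the same plate had 6804, 7155, 7260, 8001 and 8866 CPM. Every follicle at 1 h lay above every follicle at 0 h. The rise was 22.9-fold in fresh follicles (log2 4.52 ± 0.17 SE, adjusted p = 4.78e-41) and 35.5-fold in vitrified ones (5.15 ± 0.19, adjusted p = 1.22e-41).

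At 4 h Adamts1 had fallen to 266, 512 and 723 CPM in fresh and 346, 547 and 815 CPM in vitrified follicles. That was 10.2-fold lower than at 1 h in fresh follicles (log2 -3.34 ± 0.23, adjusted p = 2.14e-22) and 13.4-fold lower in vitrified ones (-3.74 ± 0.24, adjusted p = 2.33e-24), with no overlap. The 4 h means, 495 and 569 CPM, were still above those of 0 h on the other plate, 220 and 215 CPM. At 8 h the 4 fresh follicles had 444, 571, 630 and 837 CPM and the 3 vitrified ones of that plate 348, 582 and 869 CPM, which overlapped the 4 h levels. The step from 4 h was 0.33 ± 0.24 (adjusted p = 0.293) and 0.07 ± 0.27 (adjusted p = 0.853), but with total counts alone it was 0.96 and 0.69, and both passed. Per transcript length, Adamts1 went from 173 ± 41.9 TPM at 4 h (SD, n = 7) to 375 ± 78.0 TPM at 8 h (n = 4) in fresh follicles.

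Adamts4 (chr1:171250421-171260637, plus strand), another proteoglycan-cutting ADAMTS, was close to absent at 0 h. Its lowest, median and highest levels there were 0, 2.10 and 6.44 CPM in fresh and 0, 0.814 and 8.91 CPM in vitrified follicles. They were 3.72, 32.9 and 73.2 CPM in fresh follicles at 1 h and 39.9, 109 and 348 CPM at 4 h. Single follicles differed much: the SD at 4 h was 84.0% of the mean in fresh and 90.6% in vitrified follicles. The rise from 0 h to 1 h was 13.7-fold in fresh (3.78 ± 0.53, adjusted p = 8.70e-09) and 15.9-fold in vitrified follicles (3.99 ± 0.65, adjusted p = 3.23e-07). From 1 h to 4 h it rose again, by 1.89 ± 0.63 (adjusted p = 0.0095) and 2.41 ± 0.68 (adjusted p = 0.00244), although the ranges overlapped.

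At 8 h fresh follicles held 11.1, 16.9, 28.4 and 75.8 CPM of Adamts4 and vitrified ones of that plate 48.5, 61.8 and 104 CPM. Only the fresh fall from 4 h passed (-2.11 ± 0.73, adjusted p = 0.018). It missed the threshold without fresh 8 h replicate 1, 2 or 4 (adjusted p = 0.0726, 0.0522 and 0.0809) and with total counts alone (-1.52, adjusted p = 0.075). The vitrified step was -0.77 ± 0.75 (adjusted p = 0.445), and the difference between the 2 steps was 1.34 (95% interval -0.63 to 3.30, adjusted p = 0.81).

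Adamts5 (chr16:85856173-85901828, minus strand), the neighbour of Adamts1 on its chromosome and strand and an aggrecan-cutting enzyme, went down. Its lowest, median and highest levels were 9.53, 16.7 and 34.3 CPM in fresh follicles at 0 h, 5.79, 17.2 and 22.2 CPM at 1 h and 2.52, 7.97 and 11.6 CPM at 4 h. At 8 h the 4 fresh follicles had 1.60, 1.94, 2.76 and 2.93 CPM, from 6 to 15 counts each. The 8 h follicles thus lay under every fresh follicle of 0 h and 1 h. From 0 h to 1 h it changed by -0.43 ± 0.26 in fresh (adjusted p = 0.182) and 0.39 ± 0.27 in vitrified follicles (adjusted p = 0.242), and with total counts alone the fresh value passed (-0.91, adjusted p = 0.00298). From 1 h to 4 h it fell by 1.21 ± 0.33 on the log2 scale (adjusted p = 0.00135) in fresh and by 2.36 ± 0.34 (adjusted p = 6.86e-09) in vitrified follicles. From 4 h to 8 h it fell by 1.60 ± 0.42 (adjusted p = 0.00132) in fresh follicles, a value that limma on log2(TPM + 1) gave as -0.20 (adjusted p = 0.371). The vitrified fall of the same step, -1.24 ± 0.47 (adjusted p = 0.0293), rested on vitrified 8 h replicate 3 with 0.650 CPM, and without it was -0.75 (adjusted p = 0.271). It also missed the threshold with total counts alone (-0.64, adjusted p = 0.263).

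Adamts9 (chr6:92772699-92943492, minus strand), a long conserved member of the family that also cuts versican, rose from step to step. At 0 h it had 0.531, 2.44 and 6.26 CPM as the lowest, median and highest level of the fresh follicles, at 1 h 8.18, 12.6 and 18.3 CPM and at 4 h 16.2, 40.3 and 44.8 CPM. At 8 h fresh follicles had 29.1, 44.8, 49.6 and 53.3 CPM and vitrified ones of that plate 48.2, 71.7 and 79.1 CPM. The first step was 4.45-fold in fresh (2.15 ± 0.26, adjusted p = 3.04e-11) and 8.04-fold in vitrified follicles (3.01 ± 0.28, adjusted p = 7.83e-16), with no overlap in either. The second was 1.38 ± 0.29 (adjusted p = 5.45e-05) and 1.00 ± 0.30 (adjusted p = 0.00397), and with an additive plate term the vitrified value was 0.58 (adjusted p = 0.0895). Of the third, the fresh step was 0.39 ± 0.30 (adjusted p = 0.326), or 1.01 (adjusted p = 0.00355) with total counts alone, and the vitrified one 0.97 ± 0.32 (adjusted p = 0.012), which fell to 0.82 (adjusted p = 0.0809) without vitrified 8 h replicate 3.

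Reads of Adamts9 may be shared with A730049H05Rik, a gene of the opposite strand with 1381 exon bases in common. A730049H05Rik had a median of 0 CPM in fresh follicles at 0 h, 0.822 CPM at 1 h and 49.6 CPM at 4 h, a rise of 5.46 ± 0.55 from 1 h to 4 h (adjusted p = 7.28e-14). From 0 h to 1 h A730049H05Rik rose as well (2.13 ± 0.78, adjusted p = 0.023) but stayed at or under 4.10 CPM in every fresh follicle, while the median of Adamts9 moved from 2.44 to 12.6 CPM. The part of the 4 h and 8 h levels of Adamts9 that comes from such reads was not tested.

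Plau (chr14:20836660-20843385, plus strand), which codes for urokinase, had the highest mean level per length of the 10 genes in fresh follicles, 5588 ± 1409 TPM (SD, n = 7) at 4 h in fresh follicles, the 21st highest mean in the table. Its lowest, median and highest levels were 18.1, 91.3 and 326 CPM in fresh follicles at 0 h, 1875, 3259 and 3872 CPM at 1 h and 8525, 9847 and 16610 CPM at 4 h. At 8 h the 4 fresh follicles had 510, 813, 874 and 901 CPM and the 3 vitrified ones of that plate 1080, 1393 and 1454 CPM. No fresh follicle of one time overlapped one of the next at any of these steps. The changes were 22.8-fold up (4.51 ± 0.32, adjusted p = 3.46e-21), 3.81-fold up (1.93 ± 0.43, adjusted p = 0.000107) and 14.8-fold down (-3.89 ± 0.56, adjusted p = 2.83e-08). In vitrified follicles they were 4.71 ± 0.35, 1.83 ± 0.45 and -3.46 ± 0.62 on the log2 scale (adjusted p = 5.47e-20, 0.000544 and 4.93e-06). Plau at 8 h still lay above every fresh follicle of 0 h.

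Plat (chr8:22757727-22782844, plus strand), which codes for the tissue-type activator, was low throughout. The median was 4.99 CPM in fresh follicles at 0 h, 13.3 CPM at 1 h, 19.1 CPM at 4 h and 19.1 CPM at 8 h. Only the first step passed, by 1.59 ± 0.31 in fresh (adjusted p = 1.03e-05) and 1.73 ± 0.34 in vitrified follicles (adjusted p = 1.22e-05). From 1 h on, the levels of all groups overlapped. The vitrified step from 4 h to 8 h was 0.97 ± 0.42 (adjusted p = 0.0588), with 3 follicles at 6.82, 24.9 and 41.9 CPM, and passed without the lowest of them (1.43, adjusted p = 0.00924) and with total counts alone (1.61, adjusted p = 0.0015). At 4 h in fresh follicles Plat stood at 2.26 ± 0.891 TPM beside the 5588 TPM of Plau.

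Plaur (chr7:24462484-24475968, plus strand), the cell-surface receptor that holds urokinase, was scarce, with a few counts per follicle. Of the fresh follicles at 0 h, 8 of 18 had no count, and of the vitrified ones 9 of 15. The median at 1 h was 1.53 CPM in 6 fresh follicles, from 2 to 7 counts. At 4 h the lowest, median and highest levels were 3.20, 6.54 and 9.80 CPM in fresh and 2.11, 7.40 and 14.6 CPM in vitrified follicles. Plaur rose in the first step by 1.92 ± 0.55 in fresh (adjusted p = 0.00314) and 2.57 ± 0.66 in vitrified follicles (adjusted p = 0.000875), and by limma on log2(TPM + 1) the vitrified value was 0.28 (adjusted p = 0.183). In the second it rose by 1.87 ± 0.57 (adjusted p = 0.00442) and 2.29 ± 0.60 (adjusted p = 0.000907). The last step was -0.68 ± 0.57 (adjusted p = 0.362) and -0.52 ± 0.61 (adjusted p = 0.536).

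Ctsl (chr13:64359337-64370890, minus strand), a lysosomal and secreted cysteine protease, was abundant before the stimulus and climbed at each step. Its lowest, median and highest levels in fresh follicles were 844, 1373 and 2084 CPM at 0 h, 1880, 2299 and 2613 CPM at 1 h and 4720, 5026 and 7704 CPM at 4 h. At 8 h they were 5899, 7469, 9199 and 15780 CPM in fresh and 9347, 9850 and 17720 CPM in vitrified follicles of that plate. The first step was 0.69 ± 0.17 in fresh (adjusted p = 0.00044) and 1.02 ± 0.18 in vitrified follicles (adjusted p = 1.72e-06), and with total counts alone the fresh value was 0.21 (adjusted p = 0.231). The second was 1.38 ± 0.21 (adjusted p = 4.71e-08) and 1.49 ± 0.23 (adjusted p = 4.52e-08), without overlap.

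The last step of Ctsl passed at 0.71 ± 0.23 in fresh (adjusted p = 0.00997) and 0.72 ± 0.25 in vitrified follicles (adjusted p = 0.0155). Each rested on 1 library: without fresh 8 h replicate 2 the value was 0.37 (adjusted p = 0.24), and without vitrified 8 h replicate 3 it was 0.37 (adjusted p = 0.343). Per length, Ctsl reached 4610 ± 1790 TPM in fresh follicles at 8 h (SD, n = 4), above Plau at that time (651 ± 153 TPM), whereas at 4 h Plau stood above Ctsl (5588 against 1663 TPM). Within the gene lie Gm47123, an antisense gene sharing 1742 exon bases, and the pseudogene Gm49230, sharing 395. Neither is in the table used here, so that reads of the 3 cannot be told apart.

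Mmp19 (chr10:128790910-128800824, plus strand), a secreted matrix metalloproteinase, stayed low until 8 h. The median was 0.557 CPM in fresh follicles at 0 h, 1.58 CPM at 1 h and 1.30 CPM at 4 h, with at most 5.45 CPM in any of them. At 8 h the 4 fresh follicles had 13.4, 16.5, 16.7 and 19.1 CPM and the 3 vitrified ones of that plate 14.3, 17.1 and 20.7 CPM. The groups of 4 h and 8 h did not overlap. The rise was 8.02-fold in fresh (3.00 ± 0.54, adjusted p = 5.04e-06) and 9.52-fold in vitrified follicles (3.25 ± 0.57, adjusted p = 2.92e-06), and neither earlier step passed. Mmp19 shares 789 exon bases with Tmem198b on the opposite strand. Tmem198b was detected before, at a median of 4.86 CPM in fresh follicles at 0 h, and also rose from 4 h to 8 h (2.19 ± 0.34, adjusted p = 1.21e-07), to 17.1 ± 3.17 CPM (SD, n = 4). How many of the 8 h reads of Mmp19 belong to Tmem198b was not tested.

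Timp1 (chrX:20870166-20874735, plus strand), the secreted inhibitor of matrix metalloproteinases, had its steepest rise between 1 h and 4 h. Its lowest, median and highest levels in fresh follicles were 0.569, 4.22 and 10.6 CPM at 0 h, 6.96, 17.9 and 24.6 CPM at 1 h and 94.2, 221 and 321 CPM at 4 h. At 8 h they were 221, 365, 420 and 474 CPM in fresh and 386, 546 and 567 CPM in vitrified follicles of that plate. The first step was 1.84 ± 0.32 in fresh (adjusted p = 1.71e-06) and 2.07 ± 0.35 in vitrified follicles (adjusted p = 8.42e-07). The second was 13.7-fold in fresh (3.77 ± 0.40, adjusted p = 3.50e-13) and 10.7-fold in vitrified follicles (3.42 ± 0.42, adjusted p = 7.86e-11), without overlap. The last passed in vitrified follicles (1.62 ± 0.39, adjusted p = 0.000631) and missed the threshold in fresh ones (0.79 ± 0.37, adjusted p = 0.0863), where it passed with total counts alone (1.40, adjusted p = 0.00182) and without fresh 8 h replicate 4 (0.99, adjusted p = 0.0455). The difference between the 2 steps was 0.83 (95% interval -0.28 to 1.94, adjusted p = 0.773). Timp1 lies inside Syn1 on the opposite strand and shares no exon base with it.

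**Figure D3:**
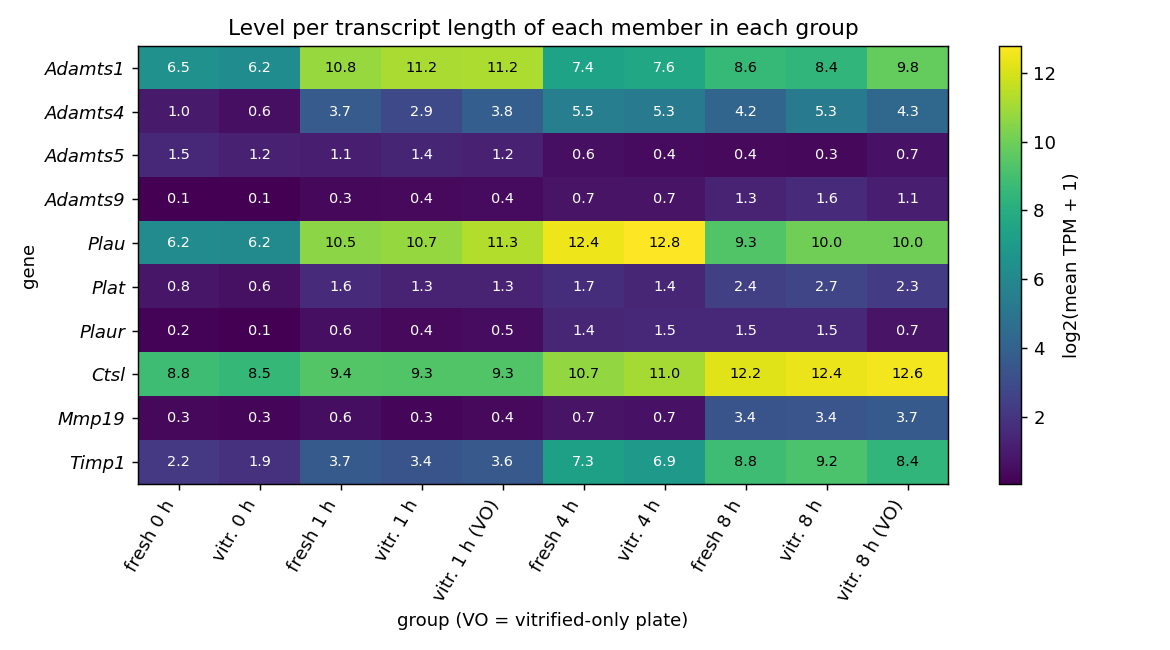
Mean level per transcript length of each gene (rows) in each group (columns), as log2(mean TPM + 1) printed in the cells and shown by color; VO marks the vitrified-only plate. Plau is the brightest row at 4 h and Ctsl at 8 h, while Adamts5, Adamts9, Plaur and Plat stay at or under 5.53 TPM in every group.

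The order of the group means, with the vitrified-only plate as groups of its own, differed between genes. Adamts1 was highest in the 3 groups of 1 h, where every vitrified follicle of the shared plate lay above the fresh ones and the vitrified-only follicles overlapped both, and Plau was highest in the 2 groups of 4 h, which overlapped. Ctsl, Mmp19 and Timp1 had all 3 groups of 8 h on top, and for Mmp19 no follicle of 8 h overlapped one of any earlier time. Adamts4 had both groups of 4 h on top, but all groups from 1 h on overlapped their neighbours in the order. For Plat only the 0 h groups stood apart from the next by more than 1 SD of each.

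No gene of the 10 passed the test between vitrified and fresh follicles of the same plate at 0, 1, 4 or 8 h, in comparisons where 0.967%, 0.555%, 0.118% and 2.06% of all genes tested did. The lowest adjusted p of the 10 were 0.494, 0.299, 0.816 and 0.595 at these times, and at an unadjusted p under 0.05 there were 0, 2, 0 and 0 genes. Of all 11889 genes tested, 1305, 1227, 770 and 1357 had such an unadjusted p. DESeq2 also called none of the 10 at any of the 4 times. The 2 genes were Adamts1 and Adamts5 at 1 h. Adamts1 was 0.60 higher on the log2 scale in vitrified follicles (95% interval 0.14 to 1.06, adjusted p = 0.299), where the 5 vitrified follicles all lay above the 6 fresh ones. Adamts5 was 0.71 higher (0.07 to 1.35, adjusted p = 0.419), with overlap. In these 2 groups of 1 h the summed medians of the 8 immune markers were 27.2 CPM in fresh and 1.30 CPM in vitrified follicles (ranges 21.4 to 57.4 and 0.275 to 8.89), those of the 6 endothelial markers 51.5 and 11.9 CPM and those of the 10 granulosa markers 65330 and 88020 CPM, and library totals had medians of 2723788 and 5107382 counts. Their part in the values was not tested.

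How large a difference the data leave room for depended on the gene. At 0 h, with 18 and 15 follicles, the 95% interval of vitrified minus fresh on the log2 scale was -0.30 to 0.24 for Adamts1, -0.35 to 0.16 for Ctsl, -0.48 to 0.26 for Adamts5 and -0.29 to 0.74 for Plau. For the scarce Plaur it was -2.22 to 0.07 and for Adamts4 -2.12 to 0.32. At 8 h, with 4 and 3 follicles, it was -0.64 to 0.54 for Adamts1, -0.35 to 1.86 for Plau, -0.20 to 0.92 for Ctsl and -0.47 to 1.34 for Timp1. The widest intervals at 8 h were those of Adamts4, -0.45 to 2.77, and Plaur, -1.15 to 1.48. Plau at 8 h was higher in all 3 vitrified follicles than in the 4 fresh ones, by 0.76 ± 0.55 (adjusted p = 0.693). At 4 h the widest interval was that of Mmp19, -1.40 to 1.06, and the value nearest to 0 that of Adamts9, 0.00 ± 0.27.

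The steps in time were also compared between vitrified and fresh follicles directly. None of the 10 genes passed that test in the step from 0 h to 1 h, from 1 h to 4 h or from 4 h to 8 h, where 0.16%, 0.0421% and 0.993% of all genes did. At an unadjusted p under 0.05 there were 3, 1 and 0 genes, beside 875, 781 and 1031 of all 11889 genes tested, and DESeq2 called none of the 10. The 3 were Adamts1, Adamts5 and Adamts9 in the first step, which were 0.63, 0.82 and 0.85 larger in vitrified follicles (95% intervals 0.10 to 1.17, 0.08 to 1.55 and 0.05 to 1.66). The 1 was Adamts5 in the second step, -1.15 (-2.09 to -0.20). These differences use the same 1 h libraries as the comparison at 1 h.

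**Figure D4:**
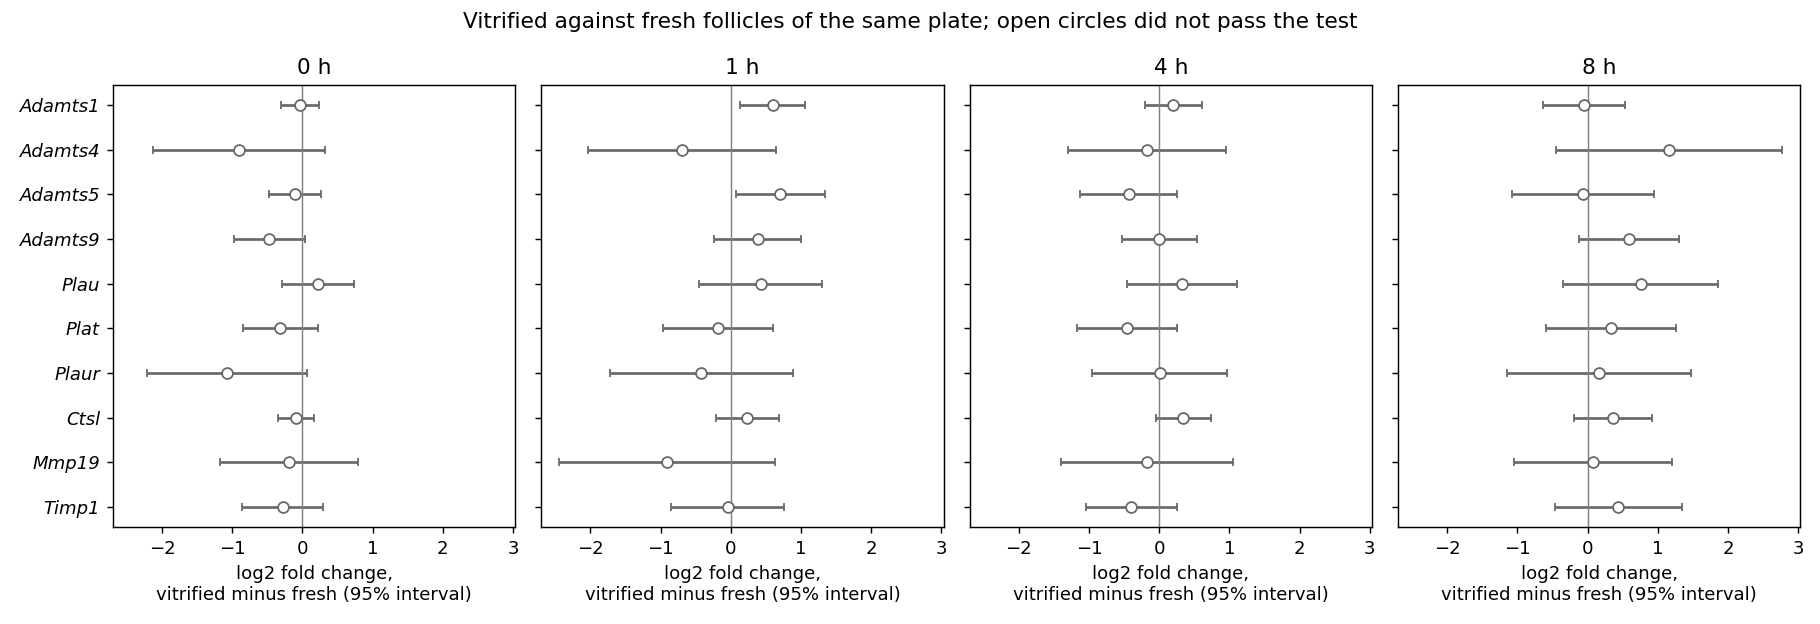
Vitrified minus fresh difference of each gene at the 4 times (log2 fold change on the x axis with its 95% interval), within a plate. All circles are open, meaning that no adjusted p was under 0.05; the interval of Adamts1 at 1 h, 0.14 to 1.06, is one of 2 that do not reach 0.

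On the vitrified-only plate, 9 follicles of 1 h and 9 of 8 h gave a further view of vitrified follicles. Their means entered none of the tests above apart from the additive plate term given for Adamts9. Their libraries did share in the estimate of the spread that those tests used. Of the 10 genes, 4 were higher at 8 h (Adamts9 by 0.67, Ctsl by 2.21, Mmp19 by 3.72 and Timp1 by 3.92 on the log2 scale) and 3 lower (Adamts1 by -2.50, Adamts5 by -2.23 and Plau by -2.30), where 32% of all genes were higher and 27.4% lower. With total counts alone the split over all genes was 6497 higher and 1589 lower against 3807 and 3256 with TMM, the median of all genes moved by 0.78, and Plat was called higher too (1.24). Mmp19 had 0, 0.524 and 6.75 CPM as lowest, median and highest level at 1 h and 12.2, 22.1 and 30.8 CPM at 8 h. Timp1 had 6.73, 19.3 and 30.3 CPM at 1 h and 167, 256 and 529 CPM at 8 h.

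Vitrified follicles of 1 h and of 8 h stood on 2 plates each, which were compared. At 1 h none of the 10 genes passed between plates (1.37% of all genes did), and DESeq2 called none of them. No gene of the 10 had an unadjusted p under 0.05, beside 1610 of all 11889 genes tested. At 8 h 4 passed, where 23.4% of all genes did. Adamts1 had 1156, 1467 and 1947 CPM as lowest, median and highest level on the vitrified-only plate against 348, 582 and 869 CPM in the 3 follicles of the other plate, without overlap (1.33 ± 0.28, adjusted p = 0.000195). The 4 fresh follicles, which stood on that other plate, had 444 to 837 CPM. Adamts5 was higher by 1.28 ± 0.44 (adjusted p = 0.0249), and Adamts9 and Plaur were lower by -0.84 ± 0.30 (adjusted p = 0.0351) and -1.54 ± 0.57 (adjusted p = 0.0373).

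Of these 4, the call of Adamts1 held without any 1 of the 3 follicles. Without vitrified 8 h replicate 3, Adamts5, Adamts9 and Plaur missed the threshold (adjusted p = 0.321, 0.226 and 0.137), and without replicate 1 Adamts9 and Plaur did (0.0999 and 0.0629). Without replicate 2 Plaur did (0.0849), and with total counts alone too (0.0545). Summed immune markers had medians of 33.6 CPM on the shared plate at 8 h and 2.33 CPM on the vitrified-only plate, and their part in these differences was not tested. The counts behind Plaur on the vitrified-only plate were 1 to 19 per follicle.

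**Figure D5:**
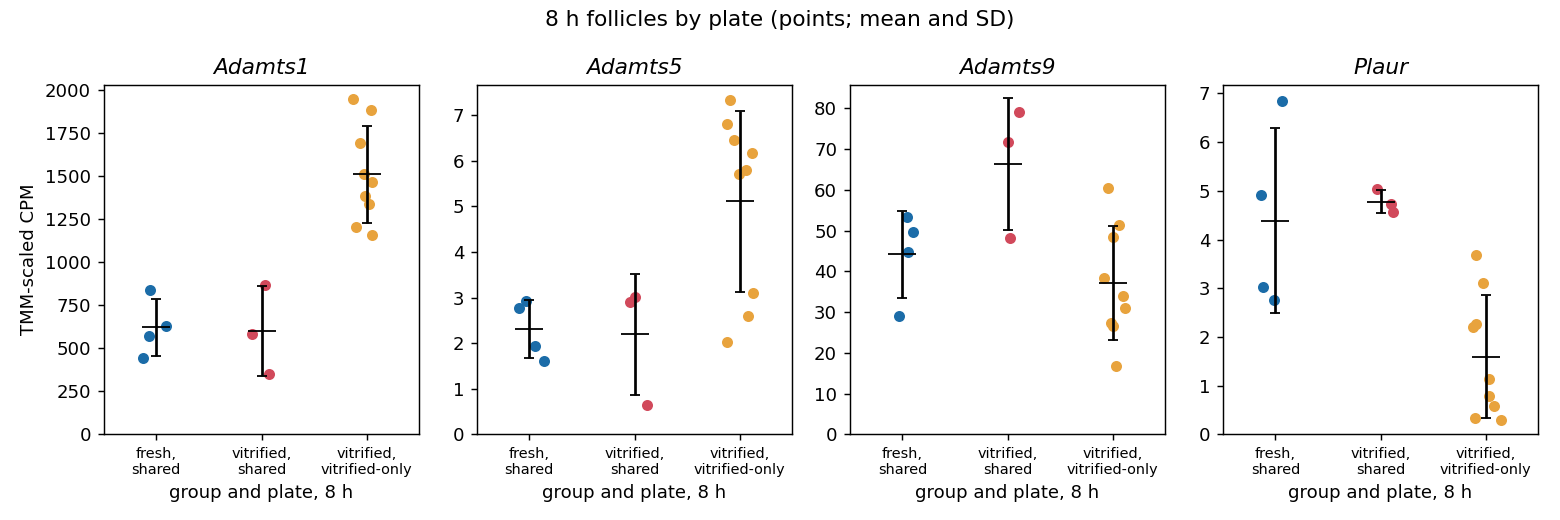
CPM (y axis) of the 4 genes that differed between plates among vitrified follicles at 8 h, with the fresh follicles of the shared plate; points are follicles, bars the mean and SD. For Adamts1, all 9 follicles of the vitrified-only plate (1156 to 1947 CPM) lie above the 7 follicles of the shared plate (348 to 869 CPM).

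The genes most like each of the 10 were named by Pearson's r of log2(CPM + 1) over the 32 libraries of the shared plate, which share their times and so fall into clusters. For Adamts1 they were Gadd45b (0.97) and Atp6v0a1 (0.96). Gadd45b, a stress-response gene, went from 323 CPM at 1 h to 5.46 CPM at 4 h in fresh follicles. Plau was most like Ptgs2 (0.95), the prostaglandin synthase of ovulation, with means of 92.0, 2600 and 21.6 CPM in fresh follicles at 1, 4 and 8 h, and like Kdelr2 (0.94). Timp1 was most like Sdc1 (0.96), a cell-surface proteoglycan with 33.4, 1157 and 2418 CPM at these times, and Rnase4 (0.96). Mmp19 was most like Cd34 (0.92) and S100a6 (0.91), which had 45.2, 39.3 and 354 CPM and 0.634, 1.04 and 27.8 CPM.

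Ctsl was most like Cdc42ep5 (0.94) and S100a10 (0.93), the partner of annexin A2 that binds plasminogen at the cell surface. Adamts5 was most like Sox4 (0.91) and Dlgap1 (0.91), and Adamts9 like its relative Adamts3 (0.89) and Ube2v1 (0.86). For Adamts4 they were Sh3pxd2b (0.85) and Csf2rb2 (0.76), for Plaur Mob3b (0.84) and Psph (0.83), and for Plat Apbb2 (0.75) and Calcrl (0.70). Among the 10 genes themselves r was highest between Ctsl and Timp1 (0.89), with Adamts9 and Timp1 at 0.87. All are descriptions over libraries that share the 3 times.

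Besides these, 4 lists of genes from the same systems held 77 genes, and those that passed the filter on low counts were tested. Their counts stand beside 19% higher and 23.1% lower over all genes in the fresh first step, 21.9% and 24.5% in the second and 20.8% and 15.7% in the third. In vitrified follicles the shares were 21.5% and 22%, 20.6% and 25.9%, and 22% and 15%. With total counts alone, 1159 of 11889 genes were higher and 5266 lower in the fresh first step, and 5093 and 715 in the third. In vitrified follicles these were 1259 and 5375, and 4717 and 835. With DESeq2 size factors they were 2262 and 3042, and 2825 and 1635. No list was tested as a set. Of 8 tested genes of 24 in the ADAMTS family and its substrates, 2 rose and 1 fell in the fresh first step, 2 rose and 3 fell in the second and 1 rose and 1 fell in the third. In vitrified follicles 4 rose and 1 fell, 2 rose and 3 fell, and 1 rose and 2 fell, and with total counts alone the first of these was 2 and 2. Vcan, the proteoglycan that ADAMTS enzymes cut, rose by 1.67 ± 0.18 (adjusted p = 5.44e-13) and then by 3.32 ± 0.26 (adjusted p = 1.29e-19). Adamts3, a procollagen-processing enzyme, rose in all 3 steps, by 3.67 ± 0.67, 3.75 ± 0.45 and 1.20 ± 0.36 (adjusted p = 3.44e-06, 3.88e-11 and 0.00489). Adamts10 fell by 0.96 ± 0.24 in the first step (adjusted p = 0.000749), Adamts7 and Bcan by 1.41 ± 0.33 and 2.48 ± 0.79 in the second, and Adamts19 by 2.90 ± 0.94 in the third. Adamts7 was at -0.60 in vitrified follicles in the second step (adjusted p = 0.122).

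Of 9 tested genes of 15 in the plasminogen system, 4 rose and 0 fell in the fresh first step, 3 rose and 3 fell in the second and 1 rose and 2 fell in the third (3 and 1 in the first and 3 and 2 in the third with total counts alone). In vitrified follicles 4 rose and 0 fell, 4 rose and 3 fell, and 2 rose and 2 fell, and with total counts alone the first was 3 and 1 and the third 3 and 1. Of the annexin A2 complex, Anxa2 rose by 1.49 ± 0.20 in the fresh first step (adjusted p = 2.92e-09). S100a10 rose in all 3 fresh steps, by 1.01 ± 0.23, 1.6 ± 0.28 and 0.83 ± 0.30 (adjusted p = 0.000162, 1.75e-06 and 0.0232). Serpinb2, an inhibitor of urokinase, rose by 7.65 ± 1.62 from 1 h to 4 h (adjusted p = 0.000134) in fresh and by 5.56 ± 1.19 (adjusted p = 0.000165) in vitrified follicles. Serpina5, another serpin, fell by 3.10 ± 0.76 in that step (adjusted p = 0.0005), and the plasminogen receptor Plgrkt by 2.86 ± 0.77 (adjusted p = 0.00133). Lrp1, the receptor that clears activator and inhibitor complexes, fell by 1.35 ± 0.24 from 4 h to 8 h in fresh follicles (adjusted p = 3.82e-06), with -0.60 in vitrified ones (adjusted p = 0.057), and Serpinb6a by 1.53 ± 0.17 (adjusted p = 1.09e-11).

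Of 9 tested genes of 22 among the matrix metalloproteinases and inhibitors, 1 rose and 0 fell in the fresh first step, 0 rose and 5 fell in the second, and 2 rose and 1 fell in the third (4 and 1 with total counts alone). In vitrified follicles 3 rose and 0 fell, 0 rose and 5 fell, and 3 rose and 1 fell, and with total counts alone the first of these was 1 and 1. Timp3 and Timp2, relatives of Timp1, each fell in 1 step. Timp3 rose by 2.27 ± 0.35 in the first step (adjusted p = 7.42e-08) and fell by 2.27 ± 0.56 in the last (adjusted p = 0.000762), and Timp2 fell by 2.75 ± 0.52 in the second (adjusted p = 7.31e-06) and rose by 1.73 ± 0.57 in the last (adjusted p = 0.0125). Mmp11, stromelysin 3, fell by 2.46 ± 0.42 from 1 h to 4 h (adjusted p = 7.71e-07) and rose by 3.10 ± 0.43 from 4 h to 8 h (adjusted p = 7.95e-09), the step in which Mmp19 rose.

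Of 13 tested genes of 16 among the cathepsins and cystatins, 9 rose and 0 fell in the fresh first step, but 1 rose with total counts alone. Of Ctsc and Ctsk, named below, at most 1 can thus have kept its call under that scaling in the first step. In the second, 3 rose and 7 fell, and in the third 1 rose and 1 fell (6 and 0 with total counts alone). In vitrified follicles 7 rose and 0 fell, 3 rose and 6 fell, and 2 rose and 0 fell, while with total counts alone the first was 2 and 1 and the third 7 and 0, and with DESeq2 size factors 4 and 0 and 3 and 0. Ctsc, the dipeptidyl peptidase that activates granule proteases, rose by 1.09 ± 0.27 (adjusted p = 0.000596) and 1.50 ± 0.34 (adjusted p = 0.000166) in the first and second steps, Ctsk rose by 1.32 ± 0.51 in the first (adjusted p = 0.0313; -0.23 with adjusted p = 0.787 in vitrified follicles), and Lgmn, which processes cathepsins, by 1.53 ± 0.32 in the second (adjusted p = 3.19e-05). Ctso and Ctsh fell by 3.14 ± 0.34 and 1.60 ± 0.57 in the second (adjusted p = 2.89e-13 and 0.0174), Ctsz rose by 0.67 ± 0.18 in the third (adjusted p = 0.00152) and Ctsh fell by 1.75 ± 0.70 (adjusted p = 0.0408), with an adjusted p of 0.0585 in vitrified follicles.

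Between vitrified and fresh follicles, none of the genes tested in these 4 lists passed at 1, 4 or 8 h, where 0.555%, 0.118% and 2.06% of all genes did. At 0 h 1 passed, where 0.967% of all genes did. That was Reck, a membrane-anchored inhibitor of metalloproteinases, which was 0.80 ± 0.19 higher in vitrified follicles on the log2 scale (adjusted p = 0.0102).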

How the data were processed

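The authors deposited a table of estimated counts per gene and a table of log2(TPM + 1) values for the same 83 libraries, made from single follicles by Smart-Seq2 and Nextera XT, per the labels' protocols, without molecular identifiers or strand. The submitters' processing notes name Partek, Bowtie2, HISAT2, DESeq2 and mm10, with no role or order. How reads that match several genes were handled is not stated there.

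Deposited estimated counts were rounded and fitted with edgeR 4.0.16 (quasi-likelihood, robust, TMM scaling, expression filter at a minimum count of 10) in R 4.3.3. The model had 1 mean for each of 10 combinations of group and plate, and 16 comparisons were drawn from it. P-values were adjusted by Benjamini-Hochberg over 11889 genes. TPM values were turned back from the deposited log2 values to compare levels between genes. Replicates are numbered in accession order. Positions are from GENCODE M21 on GRCm38, and shared exons and near-identical copies (BLAST 2.17.0+, 90% identity over 300 bases or more) were looked up there.

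The 10 genes and the lists were chosen with earlier results of these data known. The other genes named are the 2 most like each of the 10 and, for each list and fresh step, up to 2 passing genes in each direction with the largest change. The test was checked on simulated counts: for fresh 1 h to 4 h over 11889 genes, of 50 genes at each size, 66% were called at a log2 change of -2, 36% at -1, 28% at 1 and 90% at 2, and 0.077% of the unchanged genes.

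Alternatives were DESeq2 size factors, total counts alone, no low-count filter, DESeq2 1.42.0, limma 3.58.1 on log2(TPM + 1), fits of the compared libraries only, an additive or no plate term, each replicate of groups of 3 to 5 left out, and, added after seeing the data, leaving out the 2 libraries under 1000000 counts. Plates are the plate name or the prefix in the sample titles. All 83 libraries shared 1 estimate of the spread, and means of the vitrified-only plate entered only comparisons that name it.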

Additional observations from a re-analysis of the deposited data

Results flagged for a closer look

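In 3 of 70 combinations of gene and group with 4 to 10 follicles, 1 follicle stood apart from the others by Dixon's test, where chance flags about 1 in 20. Adamts9 in vitrified 4 h replicate 5 was at 60.6 CPM (125 counts), while the other 6 follicles of that group lay between 21.1 and 37.9 CPM. On the vitrified-only plate at 1 h, Plaur in replicate 9 was at 7.30 CPM, which is 7 counts in a library of 1139668, while the others lay between 0 and 3.49 CPM. On the same plate, Mmp19 in replicate 8 was at 6.75 CPM (20 counts), while the others lay between 0 and 1.75 CPM, and this follicle was the highest in Mmp19 before 8 h.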

How the results depend on the processing

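Over single genes, comparisons and alternatives, 477 values of called changes stayed past the threshold in the same direction and 32 did not, while of the uncalled ones 1184 stayed so, 25 passed and 1 turned direction. An additive or no plate term, which lets the vitrified-only libraries into the vitrified steps, ended the calls of Adamts5 and Adamts9 from 4 h to 8 h and made those of Adamts1 and Adamts4. The additive term also ended that of Adamts9 from 1 h to 4 h (0.58, adjusted p = 0.0895), and no plate term made that of Plaur from 4 h to 8 h (-1.50, adjusted p = 0.00401). Plaur did not pass the filter on low counts where only the libraries of the first or second step were fitted, which left 7 calls. Fits that moved the number of the 10 genes called by over 1.5 times are given next. Fitting only the compared libraries left 2 of 4 genes called between plates at 8 h, without Adamts5 and Adamts9. With no plate term, 1 gene was called between vitrified and fresh follicles at 8 h, Adamts1, at 1.05 (adjusted p = 0.00748) against -0.05 within a plate, since that fit pools the vitrified-only libraries. Leaving out each replicate in turn gave 3 to 5 calls from 4 h to 8 h in fresh follicles (3 without fresh 8 h replicate 2), 4 to 6 in vitrified ones and 1 to 3 between plates at 8 h (2 without vitrified 8 h replicate 1, 1 without replicate 3). Total counts alone turned the split over all genes of vitrified minus fresh from 64 higher and 51 lower to 40 and 143 at 0 h, and from 62 and 4 to 20 and 9 at 1 h, with no gene of the 10 called in either. Leaving out the 2 libraries under 1000000 counts kept 8 calls in the vitrified first step and 0 between vitrified and fresh at 0 h. No paired analysis was possible because replicate numbers were given in accession order and no label ties a follicle of one group to one of another. Low counts limit Plaur, Mmp19 before 8 h and Adamts5 at 8 h. At 0 h they also limit Adamts4, Adamts9, Timp1 and Plat, and with them the first step of these genes. Their median counts in vitrified follicles at 0 h were 2, 6, 10 and 11, and in fresh ones 6.5, 7.5, 12 and 13.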
